A study of Mus musculus with 49 samples.

Results

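Among tumours that carried the response label R, 12 had received anti-PD-1 plus celecoxib (combination R) and 4 had received anti-PD-1 alone (anti-PD-1 R), and these 16 of the 49 sequenced tumours form the comparison described here. All were CT26 tumours, grown from a cultured mouse colon carcinoma line in mice of strain Balb/c. Treatment began on day 7 after injection and ran for 7 days. The antibody was given as 2 doses of 200 µg in both groups, and only the combination tumours also had daily celecoxib (30 mg/kg). The labels do not say how R and NR were assigned or what the anti-PD-1 tumours received in place of celecoxib, nor do they give the sex, age or genotype of the hosts. Tumours with the label NR are used beside them: 4 with the combination, 13 with anti-PD-1, 7 with celecoxib alone and 9 with vehicle, a mixture of DMSO, PEG400 and water. Collection is placed on day 7 of treatment by the tissue label but on day 4 by the extraction protocol, an unresolved conflict. No collection time and no batch is given.

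PD-1 is an inhibitory receptor on activated T cells, and blocking it releases T cells that recognise the tumour. Celecoxib inhibits COX-2, the enzyme encoded by Ptgs2, which converts arachidonic acid to the precursor of prostaglandins. Prostaglandin E2 acts through receptors such as those encoded by Ptger2 and Ptger4 and is known to dampen T cells, natural killer cells and dendritic cells in tumours. The comparison asks what tumours with the same response label looked like with and without the COX-2 inhibitor.

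RNA from whole tumours was read at the 3′ end of transcripts, so fewer cells of a type and less RNA per cell cannot be told apart. Total counts ran from 5315321 to 8325352 in combination R tumours and from 5954410 to 11559488 in anti-PD-1 R tumours. Levels are CPM, read counts scaled to a common library size after TMM normalization, differences are edgeR log2 fold changes of combination R over anti-PD-1 R, given with standard errors (SE), and a gene was called at a Benjamini-Hochberg adjusted p of at most 0.05. Skeletal muscle transcripts were uneven: the mean of a list of 24 muscle genes, in log2 CPM, exceeded 3, here called the muscle limit, in combination R replicates 4, 9, 10 and 11 and in anti-PD-1 R replicates 2 and 3. Nothing in the labels ties each tumour to its own mouse, so the p-values reflect only how much these samples vary.

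No gene passed the limit between combination R and anti-PD-1 R tumours. Of 14247 genes tested with edgeR, 0 were called (0%), and the smallest adjusted p was 0.658. At an unadjusted p under 0.05 there were 1051 genes (7.38%), of which 575 were higher (4.04%) and 476 lower (3.34%) in combination R tumours. Other tools gave the same count: 0 genes by DESeq2, where 1215 had an unadjusted p under 0.05, and 0 by limma-voom, where 987 did. The median log2 fold change of all tested genes was -0.01, with 48.6% positive and 51.4% negative. The unadjusted count leaned on single tumours: it was 1718 without combination R replicate 11, 449 without anti-PD-1 R replicate 2 and 2020 without anti-PD-1 R replicate 4. It also depended on the libraries fitted: with only the 16 R tumours, in place of all 49, it was 458 of 13386 genes tested. Everything below therefore describes measured levels and intervals, and no gene named is a call in the R tumours. List counts at an unadjusted p under 0.05 stand beside 4.04% higher and 3.34% lower of all genes. Counts of positive list members stand beside 48.6% of all genes.

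The same contrast among NR tumours (4 combination against 13 anti-PD-1) called 4 of 14247 genes, all higher (0.0281%): Dbp, Tef, Nr1d2 and Per3, which belong to the circadian clock. These calls leaned on single tumours: without combination NR replicate 2 only Dbp was called, and without replicate 3 only Tef. Without replicate 1 there were 6 calls and without replicate 4 there were 7. DESeq2 gave 13 calls, of which 8 were lower, while limma-voom and the fit without the libraries over the muscle limit each gave 1 lower gene, Arntl. Among the lower DESeq2 calls were Arntl (-1.51) and Spon2 (-1.08). The rest had log2 fold changes from -18.2 (Krt33b) to -19.8 (Gm10229). They included Art1 and Ckmt2, with a highest value of 0 CPM in combination NR tumours. At an unadjusted p under 0.05 there were 816 (5.73%). A test of the difference between the R and the NR contrast called 0 genes (0%; smallest adjusted p 0.999 with edgeR), and 329 had an unadjusted p under 0.05 (2.31%). For that difference DESeq2 gave 2 calls and limma-voom 0. No gene can therefore be said to differ between treatments in another way under R than under NR in the edgeR fit. The R label was held by 12 combination and 4 anti-PD-1 tumours, and both contrasts compare tumours already sorted by response.

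The higher genes with the smallest p in the R contrast were led by Pgap1, Hivep3 and Lat2. Pgap1 (chromosome 1, 54472994 to 54557684), which encodes an enzyme that remodels the lipid anchor of surface proteins, measured 15.1 CPM in the lowest, 27.2 at the median and 55 in the highest combination R tumour, against 13.9, 11.6, 12.8 and 17.2 CPM in anti-PD-1 R replicates 1 to 4. Of the 12 combination R tumours, 11 lay above every anti-PD-1 R tumour. The difference was 1.17 (SE 0.27, 95% interval 0.63 to 1.70, unadjusted p 6.48e-05). Lat2, an adaptor protein of B cells, mast cells and myeloid cells, ran from 19.4 to 203 CPM with a median of 84.1 in combination R tumours, against 31.9, 17, 43.8 and 56.4 CPM in anti-PD-1 R tumours (1.4, SE 0.38). Here 9 of 12 combination R tumours lay above all 4 anti-PD-1 R tumours, and replicate 11 was the lowest combination R tumour. Tnfrsf1b, the second receptor for tumour necrosis factor, had a median of 74.7 CPM (33.8 to 143) with the combination and 52.6, 39.1, 43.0 and 45.8 CPM with anti-PD-1 (0.83, SE 0.25). Other higher genes of smallest p were Hivep3 (1.37), Rassf5 (1.35), Abcg3 (1.47), Susd3 (1.12), Alpk1 (0.97), Alg11 (0.75), Pgm2l1 (0.72) and Pdik1l (0.51). Rassf5 binds RAP1 and promotes lymphocyte adhesion, and Alpk1 senses bacterial sugar nucleotides.

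Among the lower genes of smallest p, after Arntl (described with the clock), Tiam2, an activator of the GTPase RAC, ran from 7.15 to 19.9 CPM with a median of 13.8 in combination R tumours, against 18, 43.1, 19 and 16.8 CPM in anti-PD-1 R tumours (-0.75, SE 0.19). The difference was -0.31 without anti-PD-1 R replicate 2, which held the highest level. Lama5, a laminin chain of basement membranes, ran from 65.7 to 139 CPM with a median of 90.1 with the combination, against 216, 287, 101 and 59.3 CPM with anti-PD-1 (-0.79, SE 0.25). Bsg, the chaperone of the lactate transporters, had a median of 198 CPM (155 to 504) with the combination and 719, 950, 223 and 232 CPM with anti-PD-1 (-1.05, SE 0.33). In Lama5 and Bsg, anti-PD-1 R replicates 1 and 2 were high, while replicates 3 and 4 lay within or below the range of the combination R tumours. Apln, a peptide made by sprouting vessel cells and by hypoxic cells, showed the same order of tumours, with a median of 52.4 CPM (30.6 to 198) against 222, 382, 56.5 and 46 CPM (-1.37, SE 0.42). The differences were -0.39 for Lama5, -0.60 for Bsg and -0.65 for Apln without anti-PD-1 R replicate 2. The remaining lower genes were Foxs1 (-1.27), Rhd (-0.97), Bcar3 (-0.75), Rfx2 (-0.70), the elastic fibre protein gene Efemp2 (-0.68), Emp2 (-0.52) and Smco4 (-0.46). Rfx2 differed by -0.16 and Emp2 by -0.34 without anti-PD-1 R replicate 2, and without the libraries over the muscle limit Rhd differed by -0.59.

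**Figure D1:**
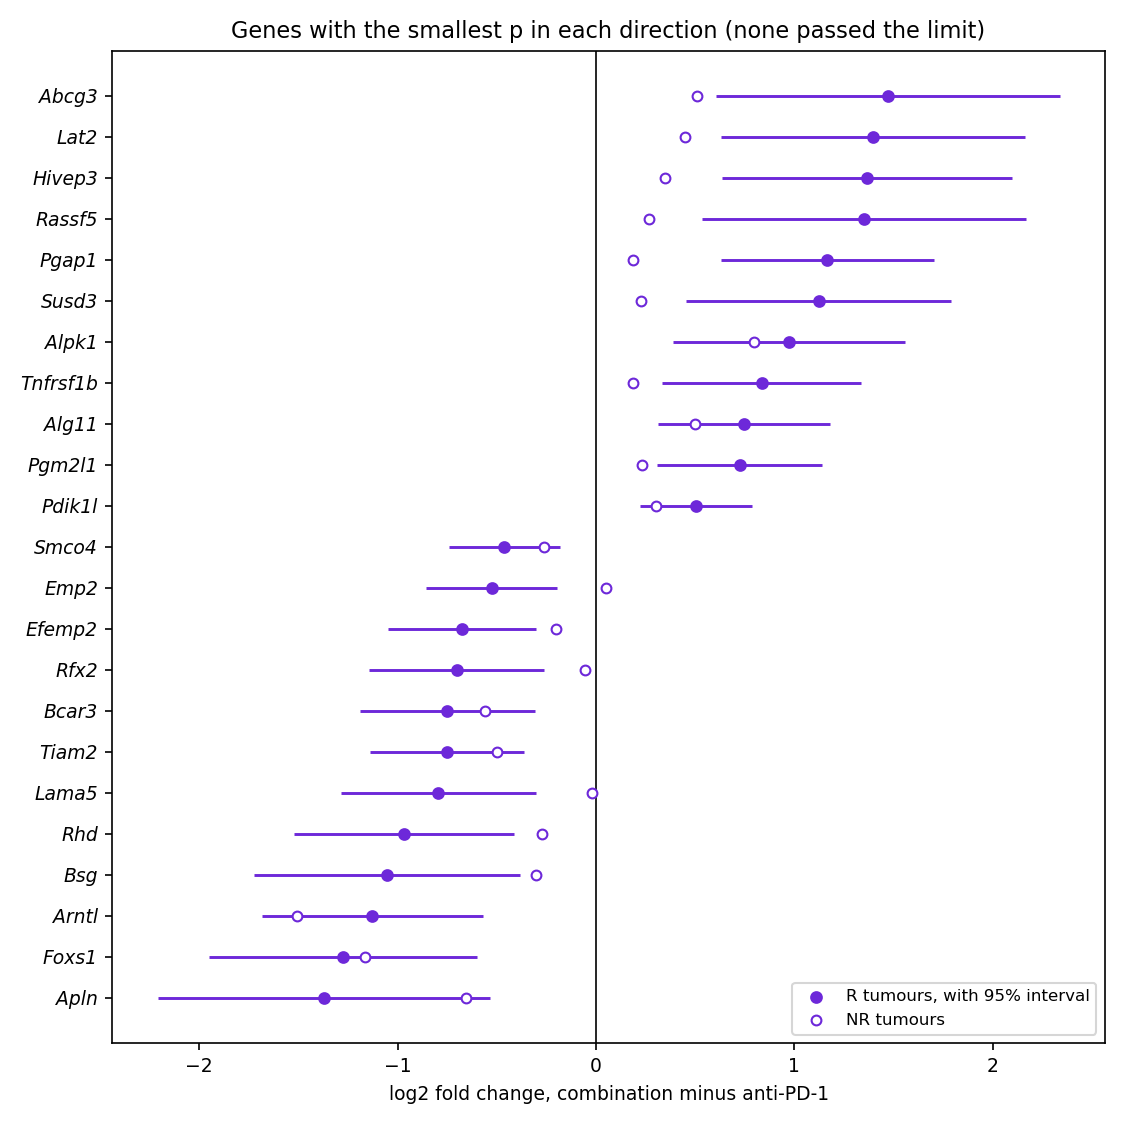
Log2 fold change of combination over anti-PD-1 (x axis) for 11 higher and 12 lower genes among those with the smallest p in R tumours; filled points with 95% intervals are R tumours and open points NR tumours. The intervals exclude 0 because the genes were picked by p, and none passed the adjusted limit (smallest adjusted p 0.658).

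Complete separation of the groups was rare. Syngr1, a synaptic vesicle protein gene, was higher in every combination R tumour (0.715 to 4.02 CPM) than in any anti-PD-1 R tumour (0.361 to 0.714 CPM), the only such gene (0.00702% of those tested). Crispld2, a secreted lipopolysaccharide-binding protein gene, was lower in every combination R tumour (4.76 to 12.1 CPM, against 12.8 to 22.9 CPM), as was Elp6, an Elongator subunit gene (4.24 to 7.66 CPM, against 7.85 to 11.2 CPM); these 2 were 0.014% of those tested. These 3 genes were named after their values were seen, because they are all that separate completely. The Syngr1 ranges nearly met at a low level, and how many genes would separate by chance was not worked out.

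The circadian clock runs in nearly every cell. BMAL1 (Arntl) and CLOCK activate genes that carry E-boxes in their regulatory DNA, among them the repressors Per and Cry, the nuclear receptors REV-ERB (Nr1d1, Nr1d2) and the output factors Dbp, Tef and Hlf. REV-ERB represses Arntl through a ROR element, and DBP, TEF and HLF bind D-boxes, where NFIL3 competes with them. Windows of 300 bases (250 before to 50 after each RefSeq start, GRCm38.p6) were found for 15 of 17 clock genes and searched on both strands for the E-box CACGTG, the D-box TTANGTAA and the ROR element ANTAGGTCA. The motifs were in 5, 1 (Per3) and 2 (Arntl and Nfil3) of these genes, and in 7.15%, 2.32% and 0.661% of all 32851 promoter windows. The clock counts are per gene over 20 windows and the shares are per window, so they are not like for like. The Dbp window held none of these letters. Shown are 3 windows that hold a match, each from a gene whose levels are given below, with the motif in capitals: the ROR element of Arntl (chr7:113207261-113207560, plus strand), the pair of D-boxes of Per3 (chr4:151044616-151044915, minus strand) and the E-box of Tef (chr15:81811164-81811463, plus strand).
Arntl: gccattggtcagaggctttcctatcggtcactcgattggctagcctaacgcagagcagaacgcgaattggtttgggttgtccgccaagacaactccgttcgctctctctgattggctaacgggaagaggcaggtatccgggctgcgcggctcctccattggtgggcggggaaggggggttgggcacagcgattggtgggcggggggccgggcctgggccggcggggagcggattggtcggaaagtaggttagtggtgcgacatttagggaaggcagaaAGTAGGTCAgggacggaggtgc
Per3: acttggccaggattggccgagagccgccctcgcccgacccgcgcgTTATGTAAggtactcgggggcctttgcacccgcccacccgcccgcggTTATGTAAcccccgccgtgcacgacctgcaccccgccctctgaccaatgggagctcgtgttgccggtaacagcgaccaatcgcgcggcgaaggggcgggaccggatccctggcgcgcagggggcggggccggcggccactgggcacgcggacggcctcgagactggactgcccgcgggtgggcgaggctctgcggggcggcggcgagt
Tef: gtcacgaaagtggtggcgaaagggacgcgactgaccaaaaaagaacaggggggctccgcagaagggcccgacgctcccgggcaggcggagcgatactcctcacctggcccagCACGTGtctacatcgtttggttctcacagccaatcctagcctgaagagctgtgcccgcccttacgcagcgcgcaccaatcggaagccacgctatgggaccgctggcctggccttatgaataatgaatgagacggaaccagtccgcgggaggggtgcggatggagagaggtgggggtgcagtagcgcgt
A match describes these letters and is not evidence of binding.

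The activator Arntl (chromosome 7, 113207465 to 113314126) had the smallest p of the lower genes in R tumours. It measured 4.67 CPM in the lowest, 7.86 at the median and 16.7 in the highest combination R tumour, against 18, 29.7, 18.8 and 11.8 CPM in anti-PD-1 R replicates 1 to 4. Of the combination R tumours, 10 of 12 lay below all anti-PD-1 R tumours, and 3 of 4 anti-PD-1 R tumours lay above the whole combination R range. The difference was -1.13 (SE 0.28), and -1.51 (SE 0.32) among NR tumours, where the adjusted p was 0.0614. Its partner Clock did not follow, at -0.22 (SE 0.26), and its relative Arntl2 differed by -0.40 (SE 0.35).

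The output factors lay on the other side. Dbp (chromosome 7, 45705088 to 45710203) measured 14.4 CPM in the lowest, 62 at the median and 133 in the highest combination R tumour, against 30.1, 49.4, 11.7 and 8.86 CPM in anti-PD-1 R tumours. The groups overlapped through anti-PD-1 R replicates 1 and 2, and 8 of 12 combination R tumours lay above all anti-PD-1 R tumours. The difference was 1.38 (SE 0.45) in R tumours and 2.53 (SE 0.37, adjusted p 0.000201) in NR tumours, and the difference between these was -1.15 (adjusted p 0.999 in edgeR). Tef (chromosome 15, 81802421 to 81826863) ran from 63.3 to 188 CPM with a median of 91.7 with the combination, against 66.2, 77.3, 31.9 and 29.5 CPM with anti-PD-1, a difference of 0.98 (SE 0.31). Among NR tumours the Tef difference was 1.70 (SE 0.26, adjusted p 0.000337). Hlf had a median of 2.22 CPM (0.574 to 3.42) against 0.535, 0, 1.64 and 0.822 CPM (1.51, SE 0.66). Nfil3, their competitor, ran from 7.02 to 34.3 CPM with a median of 18.6, against 40.8, 45.6, 19.3 and 25.8 CPM (-0.88, SE 0.29).

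The repressors were mixed. Per2 ran from 16.7 to 65.4 CPM with a median of 51.1 in combination R tumours, against 21.9, 41.9, 15.8 and 7.68 CPM in anti-PD-1 R tumours, and 9 of 12 lay above all 4 (1.10, SE 0.37). Per3 had a median of 57.2 CPM (36.5 to 135) against 49.1, 57.1, 32.5 and 27 CPM (0.58, SE 0.25). Among NR tumours the Per3 difference was 1.14 (SE 0.23, adjusted p 0.0228). Nr1d2 had a median of 89.9 CPM (62.1 to 126) against 64, 68.9, 78.2 and 45.5 CPM (0.54, SE 0.19). Among NR tumours the Nr1d2 difference was 0.96 (SE 0.17, adjusted p 0.00408). Its relative Nr1d1 differed by -0.26 (SE 0.33), with a median of 31.4 CPM (13 to 65.2) in combination R tumours, against 62.4 and 65.7 CPM in anti-PD-1 R replicates 1 and 2 but 17.2 and 17 CPM in replicates 3 and 4. Bhlhe40, a repressor that hypoxia also induces, split the anti-PD-1 R tumours in the same way: it had a median of 43.5 CPM (23.7 to 132) with the combination and 138, 262, 32.8 and 20.6 CPM with anti-PD-1 (-1.07, SE 0.46). Without anti-PD-1 R replicate 2 its difference was -0.22. Cry1 (0.54), Per1 (0.37), Cry2 (0.15), Bhlhe41 (0.10) and Ciart (-0.62) had intervals that included 0. Per1 differed by 0.95 and Ciart by 0.60 once anti-PD-1 R replicate 2 was left out.

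By list, the 4 clock outputs had a median difference of 1.18 (3 higher and 1 lower at an unadjusted p under 0.05), the 13 repressors 0.10 (2 and 2) and the 6 tested of 9 activators and nuclear receptors -0.24 (1 and 1), beside 4.04% higher and 3.34% lower over all genes. The medians of the last 2 lists were not stable: leaving out single anti-PD-1 R tumours gave -0.034 (without replicate 4) to 0.54 (without replicate 2) for the repressors and -0.48 (without replicate 4) to 0.063 (without replicate 2) for the activators and nuclear receptors. These lists were drawn up with earlier results on these tumours known. Clock output list means averaged 4.73 log2 CPM in vehicle, 4.68 in celecoxib, 4.48 in combination NR and 4.41 in combination R tumours. They averaged 3.55 in anti-PD-1 NR and 3.63 in anti-PD-1 R tumours. As no collection time is given, time of day and treatment cannot be told apart in the clock genes. In the anti-PD-1 R group replicates 3 and 4 had the lower levels of Dbp, Tef, Per2 and Per3, and replicates 1 and 2 reached into the combination R range.

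**Figure D2:**
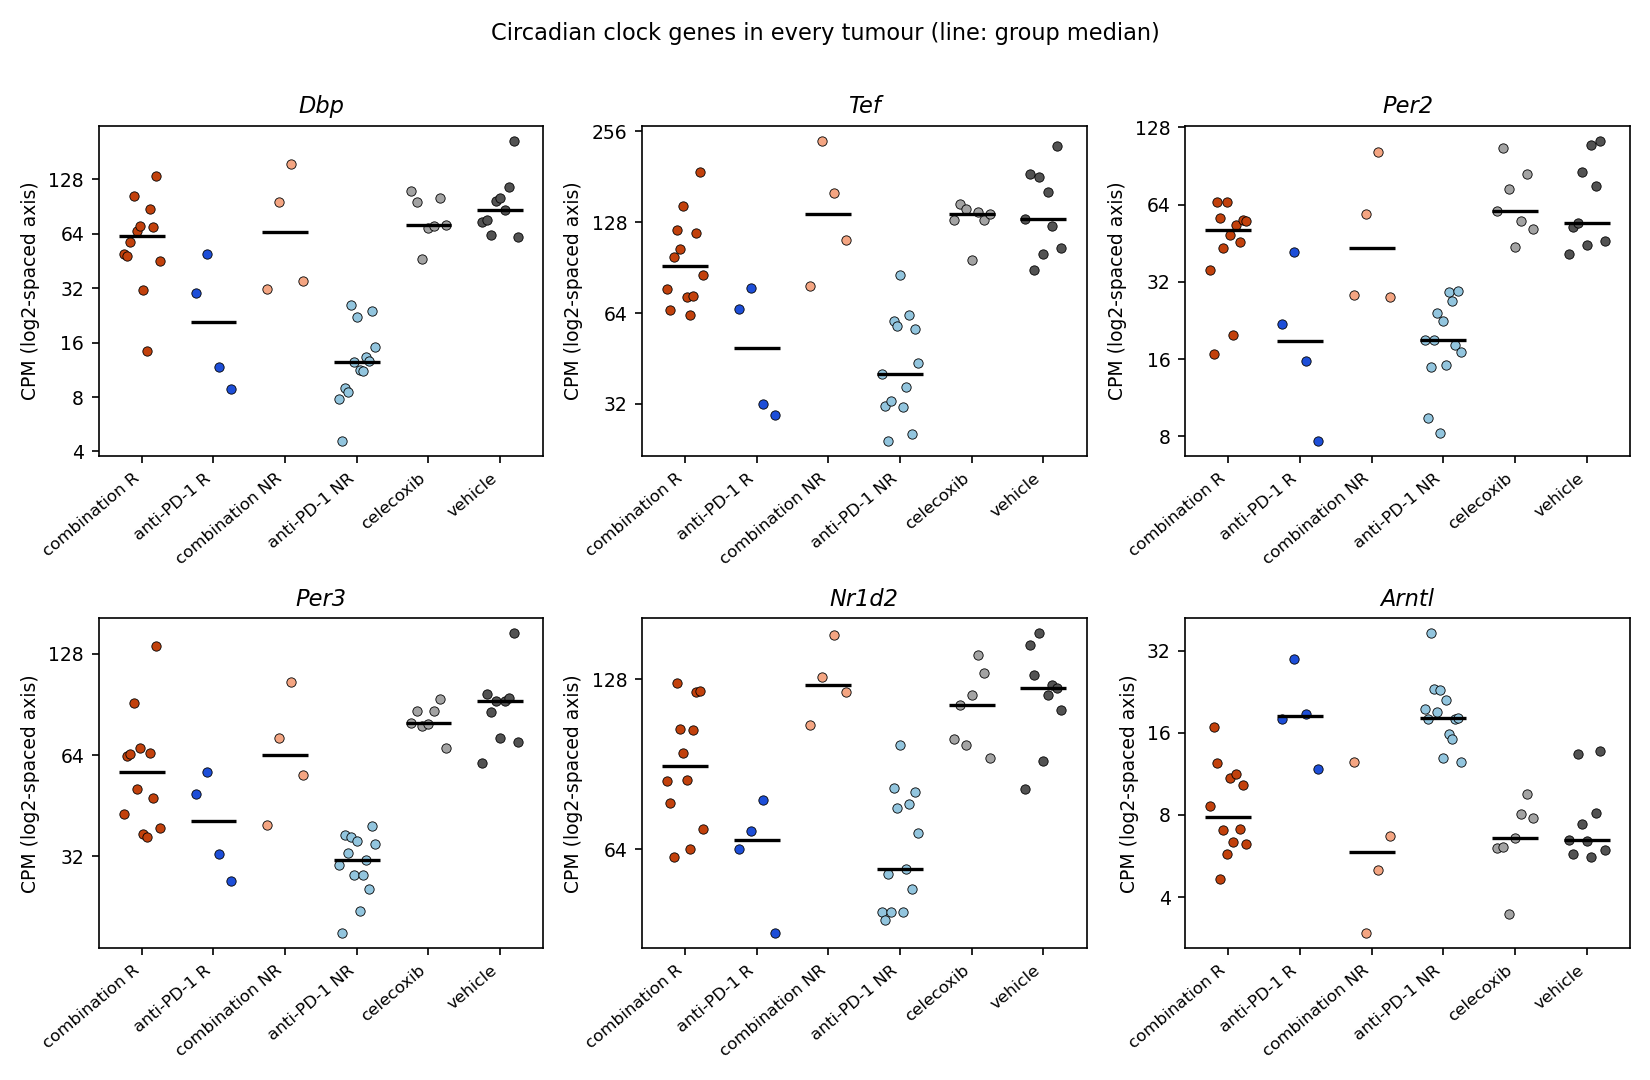
Levels of 6 clock genes in every tumour, in CPM on a log2-spaced axis, by treatment and response label, with lines at group medians. Dbp, Tef, Per2, Per3 and Nr1d2 had higher medians and Arntl a lower median in combination R than in anti-PD-1 R tumours, with overlap between the groups in each panel (Dbp median 62 CPM in combination R, with anti-PD-1 R tumours between 8.86 and 49.4 CPM).

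T cell transcripts measured higher in combination R than in anti-PD-1 R tumours, with overlap. The mean of 22 T cell genes in log2 CPM ran from -0.24 to 4.69 with a median of 3.12 in combination R tumours, against 0.93, -0.87, 2.20 and 3.02 in anti-PD-1 R replicates 1 to 4. Replicates 1 and 2 were low, whereas replicates 3 and 4 lay inside the combination R range. Of the combination R tumours 7 of 12 lay above all anti-PD-1 R tumours, and combination R replicate 11 lay between anti-PD-1 R replicates 1 and 2. Each of the 22 genes had a positive difference (median 1.43), 10 of them at an unadjusted p under 0.05, beside 4.04% of all genes, and 0 past the limit. The list median was 1.07 without anti-PD-1 R replicate 2, 2.10 without replicate 4 and 1.11 without the libraries over the muscle limit. Among NR tumours the list median was -0.17.

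Trbc2, a constant segment of the T cell receptor beta chain, had a median of 9.02 CPM (0.572 to 70.9) with the combination and 0.714, 0, 4.62 and 5.03 CPM with anti-PD-1 (2.90, SE 1.10). Cd3e, a signalling chain of the receptor, had a median of 16.3 CPM (0.715 to 40.4) against 1.43, 0.361, 4.51 and 12.8 CPM (1.90, SE 0.75). Cd8b1 and Cd8a, the co-receptor chains of cytotoxic T cells, differed by 2.36 (SE 1.04) and 2.37 (SE 1.19). For Cd8a, 8 of 12 combination R tumours lay above all anti-PD-1 R tumours, yet its 95% interval, -0.03 to 4.76, included 0. Without anti-PD-1 R replicate 4 Cd3e differed by 3.07 and Cd8a by 3.60.

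Cytotoxic genes followed the same order of tumours. All 18 tested of 22 genes were positive (median 1.06), 6 of them at an unadjusted p under 0.05, beside 4.04% of all genes. List means ran from 0.63 to 5.76 log2 CPM with a median of 4.51 in combination R tumours, against 1.42, 0.06, 3.70 and 4.59 in anti-PD-1 R tumours. The list median was 0.68 without anti-PD-1 R replicate 2, 1.96 without replicate 4 and 0.67 without the libraries over the muscle limit. Klrc1, which encodes the lectin receptor NKG2A of natural killer and CD8 T cells, had a median of 54.5 CPM (1.14 to 275) against 2.68, 1.08, 15.5 and 13.8 CPM, with 9 of 12 combination R tumours above all others (3.16, SE 0.95). Klrc1 has close relatives in its gene cluster, so the assignment of its reads is uncertain. Cxcr6, a chemokine receptor of tissue T cells, differed by 2.49 (SE 0.92), Gzmk, a granzyme, by 2.41 (SE 0.90) and Prf1, the pore-forming protein, by 2.24 (SE 0.95). Gzmb, the main granzyme of killer cells, overlapped more, with a median of 36.1 CPM (1.57 to 215) against 1.43, 1.57, 58.1 and 54.6 CPM (0.82, SE 0.71). Its difference was 0.34 without combination R replicate 9, 0.43 and 0.42 without anti-PD-1 R replicates 1 and 2, and 0.38 without the libraries over the muscle limit. Prf1 differed by 3.74 without anti-PD-1 R replicate 4.

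Inhibitory receptors and their regulators stood with the T cells. All 8 tested of 10 were positive (median 1.22, 1 at an unadjusted p under 0.05), with a median of 0.83 without anti-PD-1 R replicate 2 and 1.99 without replicate 4. Tox, a transcription factor of exhausted T cells, had a median of 17.5 CPM (0.715 to 60.2) with the combination and 1.61, 0.482, 4.21 and 12.4 CPM with anti-PD-1 (2.06, SE 0.84). Pdcd1, which encodes PD-1 itself, had a median of 12.4 CPM (0 to 73) against 0.892, 0.12, 4.51 and 10.8 CPM (2.05, SE 1.11). Tox differed by 3.21 and Pdcd1 by 3.16 without anti-PD-1 R replicate 4. The 7 tested of 8 regulatory T cell genes had a median difference of 0.12, which was -0.26 without anti-PD-1 R replicate 2 and 0.57 without replicate 4. Of 10 natural killer cell genes, 8 were tested and all were positive (median 0.99), among them the chemokine gene Xcl1 (1.68, SE 0.72; 2.69 without anti-PD-1 R replicate 3). The natural killer median was 0.60 without anti-PD-1 R replicate 2 and 1.72 without replicate 4.

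**Figure D3:**
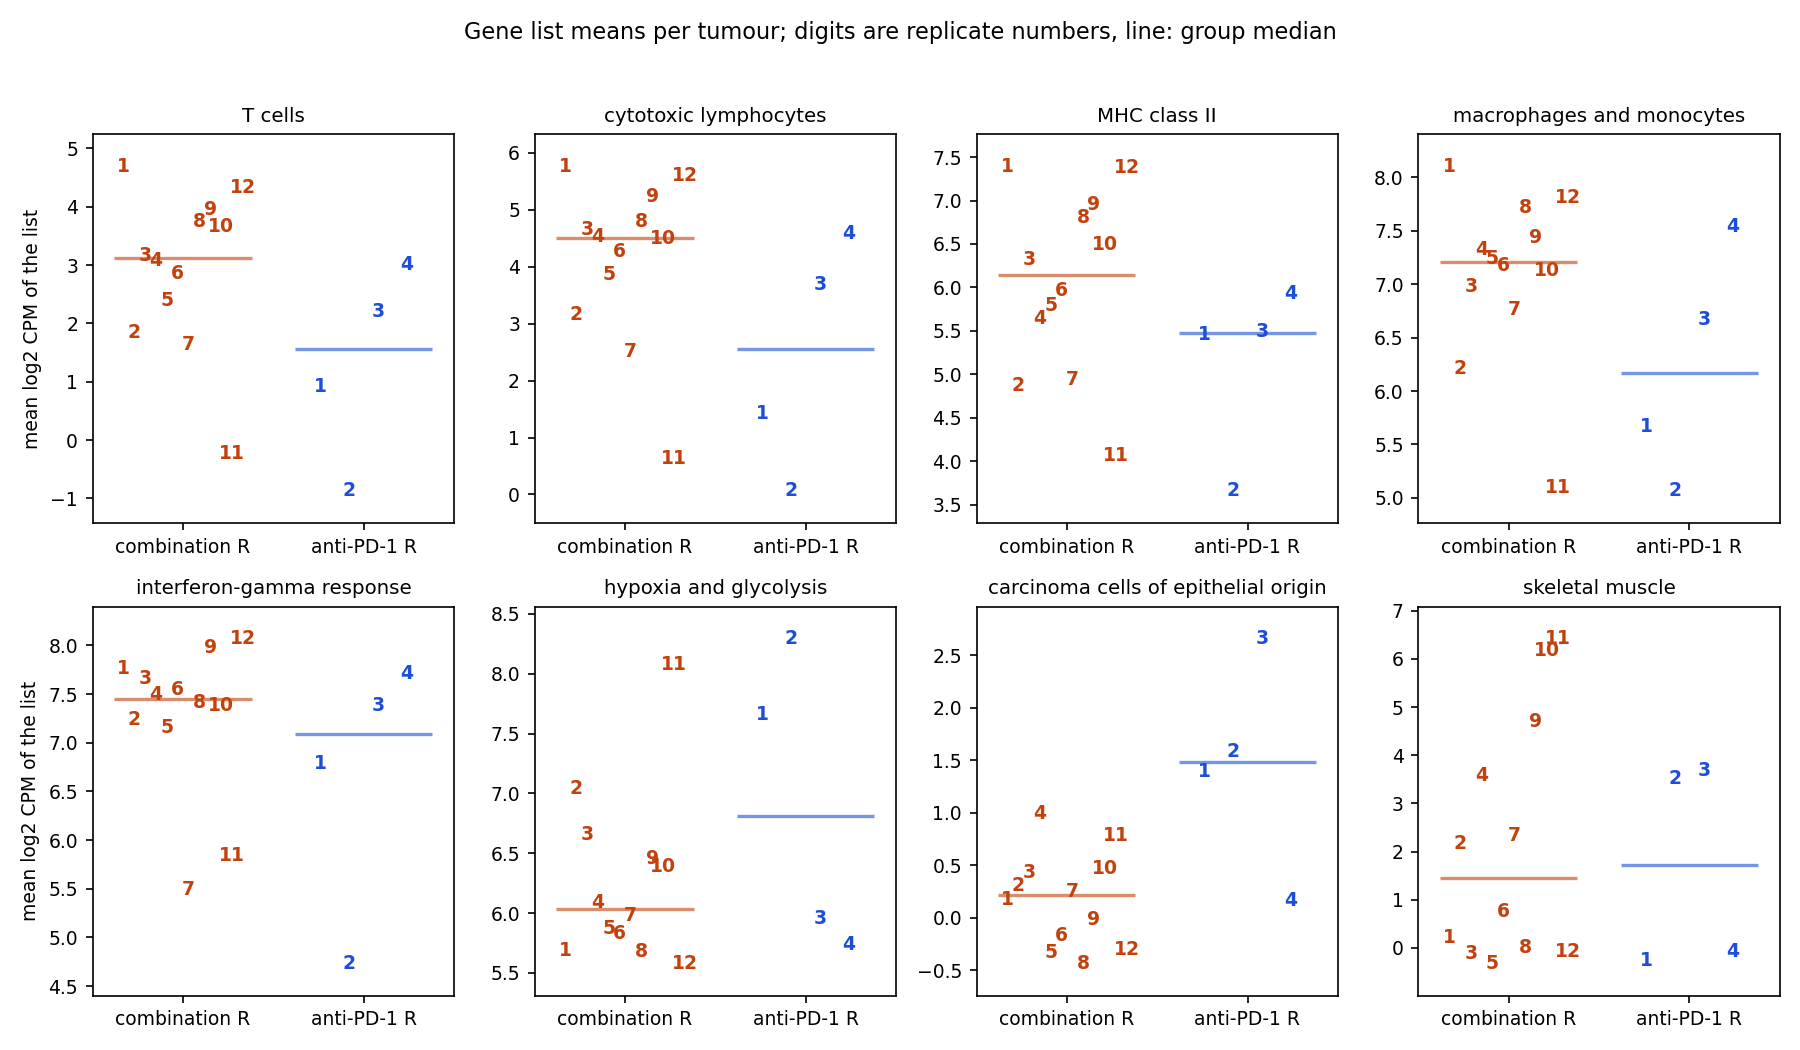
Mean log2 CPM of 8 gene lists in each R tumour (y axis), combination R left and anti-PD-1 R right; digits are replicate numbers and lines are medians. Combination R replicate 11 and anti-PD-1 R replicates 1 and 2 lie low for T cells, cytotoxic lymphocytes and macrophages and high for hypoxia, and muscle content is high in combination R replicates 9, 10 and 11.

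Macrophage and dendritic cell lists had smaller median differences than the T cell list, again with anti-PD-1 R replicates 1 and 2 mostly low. Of 20 macrophage and monocyte genes 18 were positive (median 0.81, 5 at an unadjusted p under 0.05), and list means ran from 5.10 to 8.10 log2 CPM with a median of 7.21 in combination R tumours, against 5.67, 5.07, 6.67 and 7.54 in anti-PD-1 R tumours. The list median was 0.50 without anti-PD-1 R replicate 2, 0.52 without replicate 1, 1.39 without replicate 4 and 0.48 without the libraries over the muscle limit. Csf1r, the growth factor receptor of macrophages, had a median of 266 CPM (40.4 to 746) against 67.8, 46.2, 114 and 238 CPM (1.32, SE 0.48). Apoe, a lipid carrier made by macrophages, differed by 1.28 (SE 0.51). Of 12 conventional dendritic cell genes 11 were positive (median 0.83, 4 at an unadjusted p under 0.05), with a median of 0.50 without anti-PD-1 R replicate 2. They included Itgax, the integrin CD11c (1.01, SE 0.37), and Xcr1, the receptor for XCL1 on cross-presenting dendritic cells (1.65, SE 0.78).

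MHC class II genes, which present antigen to CD4 T cells, were positive in 10 of 10 (median 1.14, 3 at an unadjusted p under 0.05). H2-Eb1 had a median of 906 CPM (167 to 3111) with the combination and 377, 107, 298 and 593 CPM with anti-PD-1 (1.79, SE 0.71), with 7 of 12 combination R tumours above all anti-PD-1 R tumours. H2-Aa differed by 1.59 (SE 0.64). The 9 tested of 10 MHC class I genes were closer (median 0.36, 0 at an unadjusted p under 0.05), with B2m, the light chain, at 0.45 (SE 0.24). Without anti-PD-1 R replicate 2 that median was 0.13 and B2m differed by 0.24; without the libraries over the muscle limit they were 0.083 and 0.21.

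Chemokines that attract T cells and monocytes were positive in 17 of 18 (median 0.90, 4 at an unadjusted p under 0.05), with a median of 0.55 without anti-PD-1 R replicate 2 and 1.42 without replicate 4. Ccl4, a member of the CC chemokine family, had a median of 72.2 CPM (17.4 to 246) against 18.6, 4.58, 30.7 and 53.5 CPM (1.73, SE 0.67), a difference that was 0.95 without the libraries over the muscle limit. Adora2a, an adenosine receptor gene from a list of 10 adenosine pathway genes (6 positive, median 0.18, and 0.38 without anti-PD-1 R replicate 4), had a median of 2.50 CPM (0.536 to 12.5) against 0.535, 0.722, 1.74 and 1.01 CPM (2.01, SE 0.64). Of 16 tested toll-like receptor genes and partners 13 were positive (median 0.61, 5 at an unadjusted p under 0.05), with a median of 0.34 without anti-PD-1 R replicate 2, 1.15 without replicate 4 and 0.37 without the libraries over the muscle limit. Ly86 and Cd180, which form a receptor complex on B cells and myeloid cells, differed by 1.56 (SE 0.54) and 1.55 (SE 0.58). Mast cell proteases were uneven: Tpsb2, a tryptase, had a median of 31.7 CPM (1.14 to 110) against 3.57, 0.843, 11.3 and 25.6 CPM (2.11, SE 0.68), and its relative Tpsab1 differed by 1.83 (SE 0.77), or 3.33 without anti-PD-1 R replicate 4.

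Interferon response lists had smaller median differences than the T cell list. Of 34 interferon-gamma response genes 32 were tested and 28 were positive (median 0.35), and 0 had an unadjusted p under 0.05. The list means ran from 5.50 to 8.07 log2 CPM with a median of 7.45 with the combination, against 6.79, 4.73, 7.39 and 7.71 with anti-PD-1. Only anti-PD-1 R replicate 2 lay below the combination R range, and without it the list median was 0.05, while without replicate 4 it was 0.68 and without the libraries over the muscle limit 0.060. Ifng, the cytokine itself, had a median of 14.6 CPM (0.715 to 39.4) against 1.78, 0.12, 7.59 and 29.3 CPM (0.60, SE 0.90), with a difference of 0.19 without anti-PD-1 R replicate 2 and 2.19 without replicate 4. Cxcl9, the interferon-induced ligand of CXCR3, had a median of 646 CPM (84 to 1142) against 215, 18.4, 644 and 1139 CPM (0.34, SE 0.71), and its difference was -0.055 without anti-PD-1 R replicate 2 and 1.12 without replicate 4. Cd274, which encodes PD-L1, differed by 0.88 (SE 0.57) and Socs1, a feedback inhibitor of cytokine signalling, by 0.72 (SE 0.42). Without the libraries over the muscle limit Ifng differed by -0.26 and Cd274 by 0.16. Type I interferon genes had a median difference of 0.04, with 16 of 26 positive, and single anti-PD-1 R tumours turned its sign (-0.27 without replicate 2, 0.58 without replicate 4).

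Hypoxia and glycolysis genes measured lower in combination R tumours as a list, and this rested on the same anti-PD-1 R tumours. All 26 genes had negative differences (median -0.73), 4 at an unadjusted p under 0.05. List means ran from 5.58 to 8.08 log2 CPM with a median of 6.03 in combination R tumours, against 7.66, 8.29, 5.95 and 5.74 in anti-PD-1 R tumours. Replicates 1 and 2 were high and replicates 3 and 4 lay near the combination R median, while combination R replicate 11 reached 8.08. The list median was -0.25 without anti-PD-1 R replicate 2 and -0.98 without combination R replicate 11, anti-PD-1 R replicate 3 or anti-PD-1 R replicate 4. The median among NR tumours was -0.57.

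Tpi1, a glycolytic enzyme, had a median of 286 CPM (217 to 654) with the combination and 681, 1031, 308 and 248 CPM with anti-PD-1 (-0.76, SE 0.29). P4ha2, a collagen prolyl hydroxylase induced by hypoxia, had a median of 38.9 CPM (15.5 to 258) against 225, 365, 40.4 and 27.4 CPM (-1.33, SE 0.62), and -0.56 without anti-PD-1 R replicate 2. Ldha, which makes lactate, had a median of 618 CPM (366 to 2523) with the combination and 1589, 2131, 1048 and 939.6 CPM with anti-PD-1 (-0.71, SE 0.34). Of the combination R tumours 9 of 12 lay below all 4, while replicate 11 lay above them. Vegfa, the vessel growth factor, differed by -0.78 (SE 0.48). Leaving out anti-PD-1 R replicate 2 gave -0.29 for Tpi1, -0.44 for Ldha and -0.22 for Vegfa. The tumours with low T cell list means and those with high hypoxia list means coincided: combination R replicate 11 and anti-PD-1 R replicates 1 and 2. Whether the one has a part in the other was not tested.

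**Figure D4:**
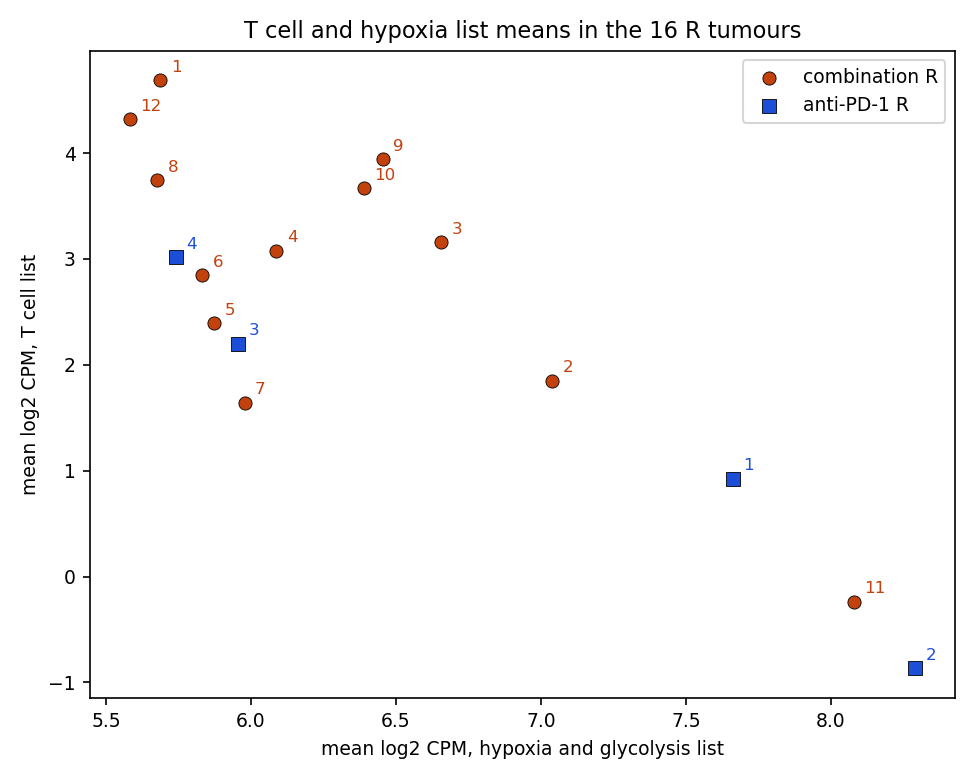
Mean log2 CPM of the T cell list (y axis) against that of the hypoxia and glycolysis list (x axis) in each R tumour, with replicate numbers; circles are combination R and squares anti-PD-1 R. Combination R replicate 11 (8.08 for hypoxia, -0.24 for T cells) and anti-PD-1 R replicates 1 (7.66, 0.93) and 2 (8.29, -0.87) lie at the lower right, and anti-PD-1 R replicates 3 and 4 lie among the combination R tumours.

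Transcripts of the prostaglandin pathway that celecoxib blocks showed no common direction. The 14 tested of 15 synthesis and breakdown genes had differences from -0.48 to 0.92 with a median of 0.03, 7 positive and 7 negative, and 1 lower at an unadjusted p under 0.05. Ptgs2 (chromosome 1, 150100031 to 150108227) had a median of 12.2 CPM (4.60 to 77.7) in combination R tumours, against 53.3, 62.9, 17.1 and 10.6 CPM in anti-PD-1 R tumours, with overlap (-0.46, 95% interval -1.71 to 0.78). That difference was -0.041 without anti-PD-1 R replicate 2, -0.79 without replicate 4 and -1.38 without the libraries over the muscle limit. Combination R replicates 9 and 10, both over the muscle limit, had the highest Ptgs2. Celecoxib acts on the enzyme, and transcript levels do not show its activity. Pla2g4a, the phospholipase that supplies arachidonic acid, differed by 0.23 (SE 0.18), Ptges, the prostaglandin E synthase, by -0.35 (SE 0.24), and Ptges3, a chaperone also described as a prostaglandin E synthase, by -0.28 (SE 0.13). Hpgds, the prostaglandin D synthase of blood cells, differed by 0.92 (SE 0.49), or 1.91 without anti-PD-1 R replicate 4. Without anti-PD-1 R replicate 2 Pla2g4a differed by 0.10 and Ptges by -0.13.

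Of 5 tested prostaglandin receptor genes 3 were positive and 2 negative, with differences from -0.56 to 1.31 (median 1.09, 1 higher at an unadjusted p under 0.05). Among them, Ptger4 had a median of 18.5 CPM (2.29 to 39.8) with the combination and 4.99, 2.77, 9.33 and 12.4 CPM with anti-PD-1, with 8 of 12 combination R tumours above all others (1.31, SE 0.45). Ptger2 differed by 1.09 (SE 0.63), and by -1.15 (SE 0.67) among NR tumours. Ptger4 and Ptger2 are carried by leukocytes, whose lists measured higher in the same group. The part of leukocyte content in these values was not tested.

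Genes of tumour-promoting inflammation showed no common direction, with 8 of 15 tested positive (median 0.08). Il1b, an inflammatory cytokine, had a median of 25.7 CPM (9.43 to 41.6) against 19.1, 3.13, 35.6 and 46.1 CPM (-0.14, SE 0.43). The neutrophil chemokines Cxcl1 and Cxcl2 differed by 0.60 (SE 0.44) and -0.23 (SE 0.65), Arg1, the arginase of myeloid cells, by -0.33 (SE 0.50), and S100a8, a neutrophil protein, by 0.45 (SE 0.50). Nos2, the inducible nitric oxide synthase, ran from 0.538 to 90.1 CPM with a median of 4.49 with the combination, against 8.92, 4.70, 5.54 and 4.02 CPM (1.23, SE 0.81), and its difference was -0.86 without the libraries over the muscle limit. Among the combination R tumours, Cxcl1, Cxcl2, Arg1 and Nos2 each had their highest levels in replicates 9 and 10. Without replicate 9 Nos2 differed by 0.19 and the list median was -0.17. Without the libraries over the muscle limit Cxcl1 differed by -0.17, Cxcl2 by -1.36, Arg1 by -0.93 and S100a8 by -0.027, and the list median was -0.38. Il10, a cytokine that restrains inflammation, differed by 1.58 (SE 0.67), or 2.56 without anti-PD-1 R replicate 4.

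Stromal and vessel genes mostly measured slightly lower in combination R tumours. Of 20 fibroblast and matrix genes 3 were positive (median -0.32, 1 higher and 2 lower at an unadjusted p under 0.05), with a median of -0.16 without anti-PD-1 R replicate 2 and -0.13 without the libraries over the muscle limit. Sparc, a matrix protein, had a median of 713 CPM (521 to 979) against 959, 1036, 852 and 962 CPM, with 9 of 12 combination R tumours below all anti-PD-1 R tumours (-0.37, SE 0.18). Thy1, which T cells carry as well as fibroblasts, went the other way (0.80, SE 0.38), or 0.49 without the libraries over the muscle limit. Among matrix proteases and inhibitors 5 of 18 tested were positive (median -0.19, and -0.10 to -0.36 when anti-PD-1 R replicate 1 or 4 was left out). Adam12, a metalloprotease of activated stroma, had a median of 3.13 CPM (1.61 to 5.97) against 5.71, 4.58, 5.54 and 6.31 CPM, with 10 of 12 below all 4 (-0.66, SE 0.30), and Adamts4, an aggrecan-cleaving protease, differed by -0.67 (SE 0.26). Of 19 tested endothelial genes 3 were positive (median -0.27), a median that was 0.16 without anti-PD-1 R replicate 1 and -0.56 without the libraries over the muscle limit. Robo4, a vessel receptor, differed by -0.74 (SE 0.34), Plvap, of fenestrated vessels, by -0.61 (SE 0.30), Spon2, a matrix protein, by -0.50 (SE 0.25) and Angptl4, an inhibitor of lipoprotein lipase, by -0.59 (SE 0.26), or -0.33 without anti-PD-1 R replicate 3.

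Epithelial transcripts were scarce in all 16 tumours and measured lower with the combination. The summed level of the 8 tested of 10 epithelial carcinoma genes was 9.06 to 79.5 CPM in combination R tumours, against 18.8 to 104 CPM in anti-PD-1 R tumours. Epcam, an epithelial adhesion protein, had a median of 0 CPM with the combination and 0.448 CPM with anti-PD-1, and Krt18, a simple epithelial keratin, 8.32 and 24.5 CPM. Krt19, another keratin, ran from 0 to 1.95 CPM with a median of 0.251, against 2.85, 6.86, 14.9 and 0.640 CPM (-3.71, SE 0.96), a difference at low counts. All 8 were negative (median -2.15, 3 at an unadjusted p under 0.05), a median that was -0.45 without anti-PD-1 R replicate 3, the tumour with the highest list mean (2.66 log2 CPM), and -1.12 without the libraries over the muscle limit.

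Cholesterol synthesis genes were negative in 16 of 18 tested (median -0.26, 3 at an unadjusted p under 0.05), among them Sqle (-0.53, SE 0.25) and Lss (-0.50, SE 0.23), which act between squalene and lanosterol. The median was -0.099 without anti-PD-1 R replicate 2 and -0.0071 without the libraries over the muscle limit, where Sqle differed by -0.23 and Lss by -0.24. Proliferation genes had a median difference of -0.08, with 8 of 22 positive, and a median of 0.12 without anti-PD-1 R replicate 3 and 0.27 without the libraries over the muscle limit. Glucocorticoid receptor targets had a median of -0.15, which was 0.014 without anti-PD-1 R replicate 2. Of these, Fkbp5, a receptor co-chaperone, had a median of 70.5 CPM (46.2 to 107) against 58.0, 78.5, 90.8 and 67.9 CPM, a difference of -0.02 (95% interval -0.45 to 0.41), and Tsc22d3, a mediator of glucocorticoid action, differed by 0.54 (SE 0.34). The 7 tested of 13 mitochondrially encoded transcripts were all positive (median 0.24, and 0.12 to 0.50 when anti-PD-1 R replicate 4 or 2 was left out). The respiratory complex I subunit mt-Nd5 had a median of 732 CPM (326 to 1255) with the combination and 438, 560, 353 and 373 CPM with anti-PD-1 (0.75, SE 0.29).

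Muscle genes had a median difference of 1.52, with 23 of 24 positive and 0 at an unadjusted p under 0.05. Their summed level was 79.4 to 4417 CPM in combination R tumours, where replicates 10 and 11 had 3891 and 4417 CPM, against 105 to 588 CPM in anti-PD-1 R tumours, and no muscle gene was at 0 in every tumour of either group. At the group medians the order was reversed, with a summed level of 184 CPM in combination R and 343 CPM in anti-PD-1 R tumours. The median list means were 1.46 and 1.72 log2 CPM. Without combination R replicate 11 the median difference of the muscle genes was 0.94. Adipocyte genes had a median of 0.15 (7 of 9 tested positive), which was 1.65 without anti-PD-1 R replicate 3 and -0.14 without replicate 4, with Lpl, the lipoprotein lipase that macrophages also make, at 1.44 (SE 0.47) and 10 of 12 combination R tumours above all anti-PD-1 R tumours. Red blood cell genes had a median of 0.77, which was 0.39 without combination R replicate 3 and 1.59 without anti-PD-1 R replicate 3, with Hba-a1, a haemoglobin chain that has a near-identical copy, at 1.74 (SE 0.72). Their summed level was 11.4 to 1003 CPM against 27.6 to 263 CPM. The part of fat and blood content in the other differences was not tested. For muscle, the fit without the libraries over the muscle limit again called 0 genes, with 924 at an unadjusted p under 0.05. In that fit the median difference of the muscle genes was 1.70, so it did not remove the muscle difference between the groups. A fit with the muscle list mean as a covariate also called 0 genes, with 1231 at an unadjusted p under 0.05.

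Side by side, the R and NR contrasts, which share no tumour, gave list medians of 1.43 and -0.17 for T cells, 1.14 and -0.18 for MHC class II, 1.06 and -0.11 for cytotoxic lymphocytes, 0.81 and 0.11 for macrophages, -0.73 and -0.57 for hypoxia, and 1.18 and 1.39 for the clock outputs. The medians were 1.52 and -1.27 for skeletal muscle and 0.15 and -2.27 for adipocytes. With the muscle list mean as a covariate, the test of the difference between the contrasts called 0 genes, with 349 at an unadjusted p under 0.05. The part of muscle and fat content in the medians of the other lists was not tested between the contrasts. Of the 22 T cell genes, 2 had an unadjusted p under 0.05 for the difference between the contrasts, and of the 18 cytotoxic genes 3, against 2.31% of all genes, and 0 passed the limit. Trbc2 differed between them by 3.40, Klrc1 by 2.62 and Nr1d1 by -1.19 on the log2 scale, each with an adjusted p of 0.999 in edgeR.

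**Figure D5:**
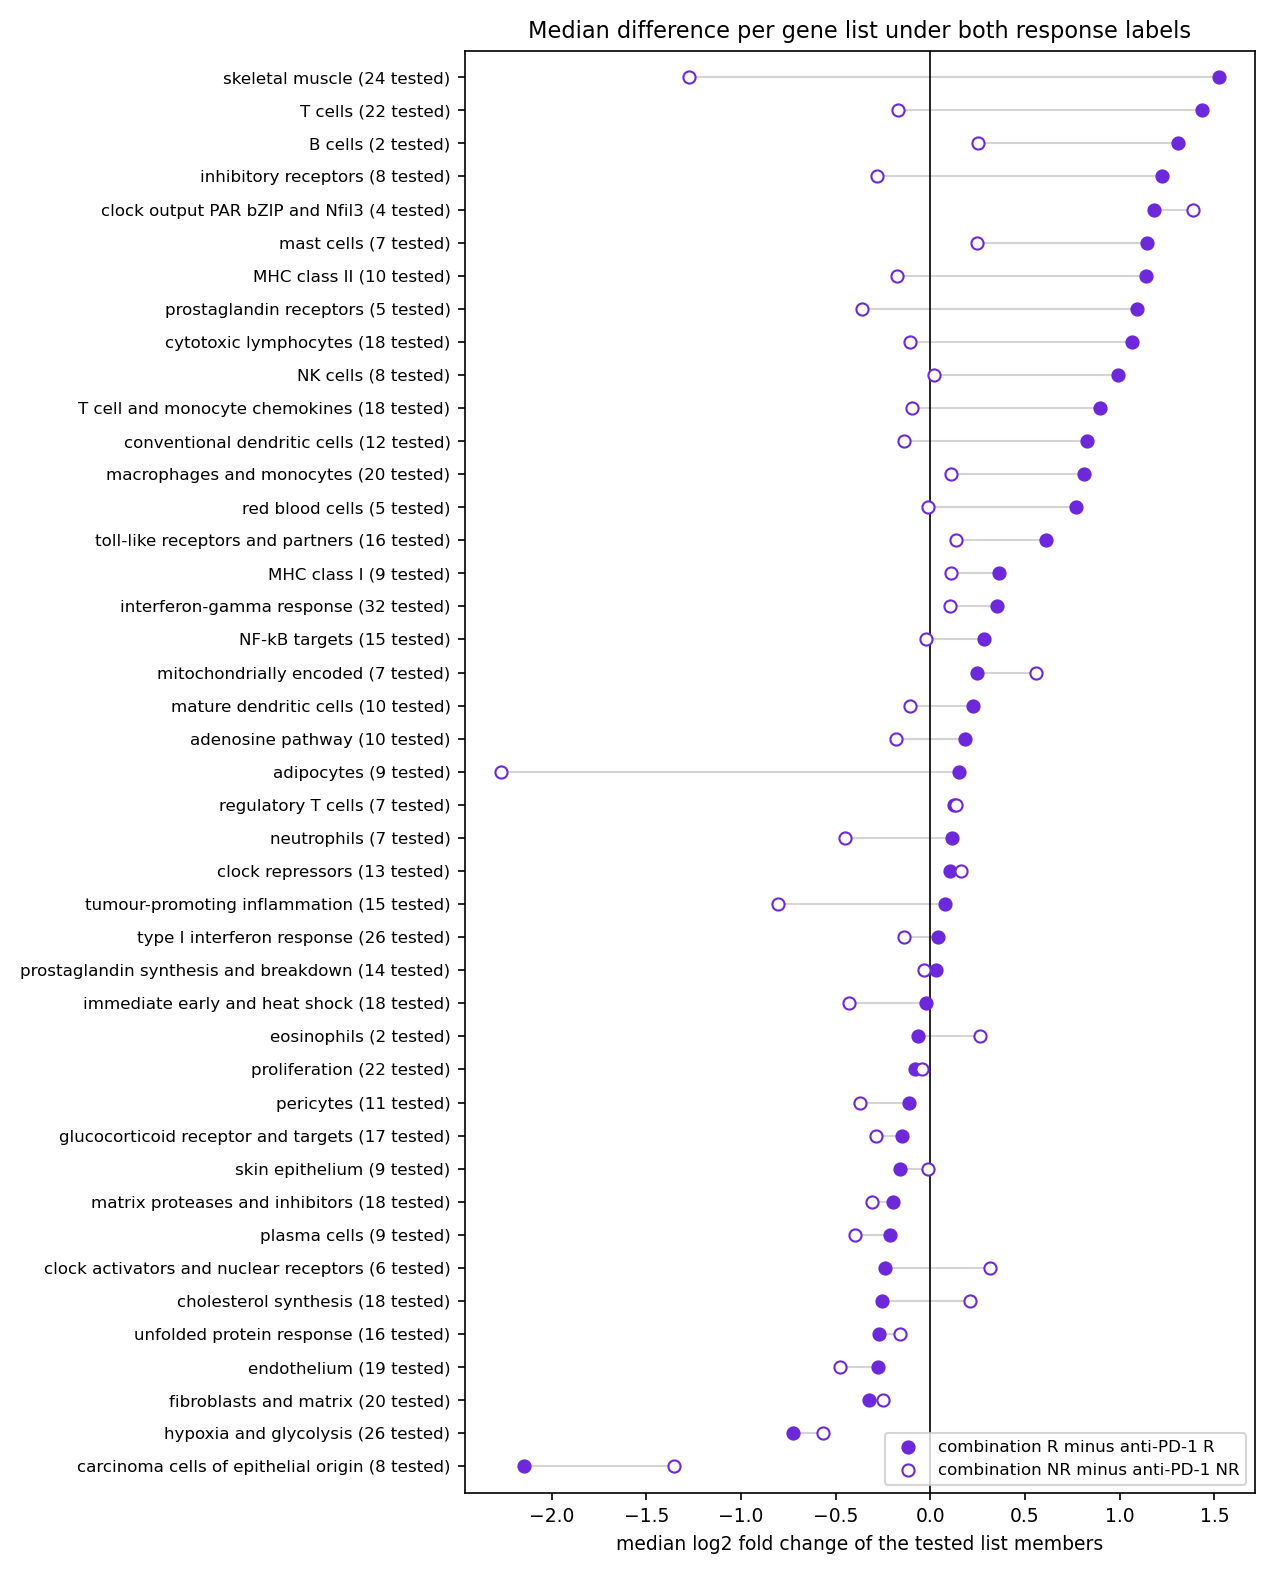
Median log2 fold change of combination over anti-PD-1 (x axis) for the tested members of 43 gene lists (y axis), with filled points for R and open points for NR tumours. T cell and MHC class II lists are positive in R and slightly negative in NR tumours (1.43 and -0.17 for T cells), while clock outputs and hypoxia lie on the same side in both.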

How the data were processed

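RNA of whole CT26 tumours was made into QuantSeq 3′ FWD libraries, per the labels' protocols. The authors deposited raw counts per Ensembl gene (39179 genes, 37607 with a symbol). Per the submitters' processing notes they used bcl2fastq, STAR, featureCounts and limma with mm10 and GRCm38; versions, strand setting and multi-mapping rules were not found in them, so genes with close copies or antisense partners are uncertain. The second deposited table, log2 CPM, was not used.

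One edgeR 4.0.16 fit (R 4.3.3) of all 49 libraries in 6 groups of treatment and response label used TMM, filterByExpr (14247 genes kept), robust quasi-likelihood tests and the Benjamini-Hochberg adjustment with a limit of 0.05. The comparisons are contrasts of that fit. CPM use TMM library sizes, and list means are log2 CPM with a prior count of 2. Lists are described by counts and medians, without a test. Library totals ran from 4251251 to 13671294, and standard errors reflect variation among tumours. Between any 2 of the 16 libraries Pearson r was at most 0.979 and chi-square at least 9.53 per gene, so none was counted as a copy. The pipeline was tested on simulated data.

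The members and the 43 lists were chosen with earlier results of these data known. Named are, as none passed, the 12 higher and 12 lower genes of smallest p with a mean of at least 2 CPM, without predicted genes and antigen receptor segments, a panel of 44 genes (Npas2, Hpgd and Il6 fell below the filter) and up to 3 members of smallest p per list, given in part; 1 of the higher genes is not reported here. Coordinates are from GENCODE on GRCm38 and promoters from RefSeq on GRCm38.p6. Alternatives were DESeq2 1.42.0, limma-voom (limma 3.58.1), RLE normalization, no filter, a muscle covariate, the 16 R tumours alone and leaving out each R tumour or each combination NR tumour in turn. Chosen after the data were seen were leaving out each combination R tumour for the difference between contrasts and leaving out libraries whose muscle list mean exceeded 3 log2 CPM, which left 8 combination R and 2 anti-PD-1 R tumours.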

Additional observations from a re-analysis of the deposited data

Results flagged for a closer look

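Of 178 sets of 4 tumours screened (named genes and list means), 5 held a tumour that stood apart from the other 3 by most of the group's range (Dixon's test at the 95% level), and chance alone gives about 5%. Values are log2(CPM + 1) unless stated. In the anti-PD-1 R group, Tiam2 was 5.46 in replicate 2 (next 4.32), Socs1 was 4.43 in replicate 2 (next 5.50) and Adamts4 was 4.43 in replicate 3 (next 3.82). The skin epithelium list mean was 1.51 log2 CPM in replicate 3 (next 0.61). In the combination NR group, Hlf was 3.33 in replicate 3 (next 1.57).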

How the results depend on the processing

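The count of genes in the R contrast was 0 in all 23 alternatives. At an unadjusted p under 0.05 there were 449 (without anti-PD-1 R replicate 2) to 2020 (without anti-PD-1 R replicate 4). With only the 16 R tumours there were 458 of 13386, and without a filter 1805 of 24945. The NR count of 4 was 13 with DESeq2 (5 higher, 8 lower) and 1 to 7 when a combination NR tumour was left out (1 without replicate 2 or 3, 6 without 1, 7 without 4). The count for the difference between the contrasts was 2 with DESeq2 (Art1 and Ckmt2, genes of striated muscle with a median of 0 CPM in combination R and a highest value of 0 CPM in combination NR tumours, named after the result was seen) and 0 in the other alternatives run for it, the fits without each combination R tumour (added after the data were seen) included; the 16 R tumours alone cannot give it. Of 118 genes followed, 104 kept their direction in every alternative, and none passed the limit in any. Many of these genes were picked for a small p in this same contrast, and most alternatives share nearly all tumours. A kept direction therefore adds little. Limma-voom turned Ciart to 0.26, Cxcl2 to 0.20, Il1b to 0.25 and Nos2 to -0.063. Without the libraries over the muscle limit, Ifng was -0.26, Cxcl9 -0.045, Cxcl1 -0.17, Nos2 -0.86, S100a8 -0.027 and Fkbp5 0.29. Leaving out 1 tumour at a time gave ranges across 0 for Ciart (-1.02 to 0.60), Nr1d1 (-0.53 to 0.086), Clock (-0.42 to 0.040), Cry2 (-0.034 to 0.54), Bhlhe41 (-0.18 to 0.57), Cxcl9 (-0.055 to 1.12), Cxcl2 (-0.79 to 0.38), Il1b (-0.51 to 0.29), Arg1 (-0.65 to 0.030) and Fkbp5 (-0.14 to 0.086); the cause was not tested. With 4 anti-PD-1 R tumours the intervals are wide, and a missed limit does not show equal levels. No paired analysis was possible because the replicate numbers only name tumours in the order of the labels.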
